A study of Mus musculus with 6 samples.

Results

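The genes described here encode the nuclear subunits of the mitochondrial respiratory chain and of ATP synthase, with the assembly factors whose names begin in the same way. They were taken by gene name: every probe set of the array whose single annotated symbol starts with Nduf, Uqcr or Atp5, or is 1 of 13 named symbols of succinate dehydrogenase, cytochrome c, cytochrome c1 and cytochrome c oxidase. That gave 144 of 22690 probe sets, which read 76 of the 12393 genes named on the array, and all 76 genes had at least 1 probe set bright enough to be tested. Of the named symbols, Cox7b is not analysed here. By complex the set held 38 genes of complex I, 4 of complex II, 9 of complex III, cytochrome c, 6 of complex IV, 17 of ATP synthase and Ndufa4. Ndufa4 carries a complex I name, but its protein is now placed in complex IV, so it is given on its own. Other subunits of these complexes, mitochondrially encoded ones included, are not analysed here.

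RNA came from normal adult female C57Bl/6 mice aged 6 months, in which the superficial masseter, a jaw-closing muscle, was compared with the tibialis anterior, a limb muscle. There were 3 samples of each muscle, numbered 1 to 3 and hybridised to separate arrays, and no sample was treated or carried an engineered allele. Samples were whole frozen muscle, so fewer cells of a type and less RNA per cell cannot be told apart. Whether they came from different mice is not stated in the sources used here, so p-values measure only the spread between these samples, some of which may be technical.

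Complexes I and II take electrons from NADH and from succinate and pass them to ubiquinone. Complex III hands them to cytochrome c, and complex IV passes them to oxygen. Complexes I, III and IV pump protons across the inner mitochondrial membrane, and ATP synthase lets the protons back through its rotor to make ATP. Skeletal muscle fibres differ in how much of this machinery they hold, and staining for the activity of complex II is a classical way to tell oxidative from glycolytic fibres in a muscle section.

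The values are scaled linear signals, with a 2% trimmed mean near 150.1 on every array. Levels of the set are compared between muscles for 1 probe set at a time, apart from ratios of complex II subunits within an array. Each difference is the log2 level in the masseter less that in the tibialis anterior, given with its standard error (SE), and adjusted p-values are from limma over all 13576 probe sets kept by the filter, with n = 3 arrays per muscle. A gene is represented by its brightest probe set unless another is named. Because 71 of the 76 genes lay above the 90th percentile of mean log2 signal, shares are also given for the 2263 probe sets above it, called the bright probe sets below.

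The arrays held abundant transcripts of skeletal muscle fibres and, to unequal degrees, of other tissues. Over 9 fibre markers on the array, masseter 1, 2 and 3 gave summed signals of 111739, 131079 and 140829 and the tibialis arrays 148567 to 152788, and 2 of the 9 (Myh4 and Actn3) passed the threshold, both lower in the masseter. For 10 salivary gland markers masseter 1 stood far above the rest with a sum of 60589, masseter 2 had 7969 and masseter 3 had 3282, and the tibialis arrays had 2468 to 5971. Of 6 salivary markers that could be tested, 2 passed, both higher in the masseter, and 5 of the 6 (Bpifa2, Amy1, Pip, Smr3a and Car6) were higher in masseter 2 than in any tibialis array. Of the 4 too dim to be tested, Prol1, Dcpp1 and Aqp5 had signals of at most 5.9 in masseter 2 and 3, and Lpo had 14 and 9.9. The sum over 6 adipocyte markers was 5021 to 6827 in the masseter against 3691 to 6280, and 1 of the 5 tested passed, higher in the masseter. Over 6 endothelial markers it was 868 to 1021 against 874 to 1303, over 6 immune markers 450 to 561 against 342 to 514, and over 3 erythroid markers 223 to 246 against 128 to 164. Of the 12 of these that could be tested, none passed by limma. For Gapdh, whose control probe sets compare both ends of its transcript as a gauge of RNA integrity and labelling, 3' over 5' signal was 2.66 ± 0.23 (SD, n = 3) in masseter samples against 1.94 ± 0.11 (exact permutation p = 0.1, two-sided, the smallest that 3 against 3 arrays allow). For Actb it was 2.96 ± 0.34 against 2.70 ± 0.11, with overlap (exact permutation p = 0.3). Beyond leaving out single arrays, the part of these values in the results below was not tested.

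The respiratory chain and ATP synthase genes differed little between the muscles. By limma, 0 of 76 genes passed an adjusted p of 0.05 in either direction, where 1.18% of all probe sets did (0.619% lower and 0.560% higher in the masseter) and 2.65% of the bright ones. The differences ran from -0.57 for Sdhb, the iron-sulphur subunit of complex II, to 0.31 for the dim probe set of Ndufb1, an accessory subunit of complex I. At an unadjusted p under 0.05, 5 genes were lower in the masseter (Sdhb, Sdhd, Atp5j, Cox5b and Ndufc2) and 0 were higher, or 6.58% lower against 6.12% of all probe sets and 13.7% of the bright ones. In the higher direction it was 6.93% of all probe sets and 8.79% of the bright ones. Paired SAM, the test that the study's design text names, called 0 of the 76, and a limma fit with array weights called 2, Sdhb and Sdhd. Those weights were the same for both muscles within a numbered pair, at 0.63, 2.04 and 0.779 in pairs 1, 2 and 3. They thus weighted pairs, pair 2 most, and not single arrays.

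The intervals show how large a difference these arrays could still hide. For 65 of the 76 genes (85.5%) the 95% interval lay wholly within 1.5-fold in either direction, against 24.7% of all probe sets and 58.3% of the bright probe sets. The 11 others were Sdhb, Sdhd, Atp5j, Atp5md, Ndufc2, Ndufa7, Ndufb1, Ndufaf4, Ndufaf7, Uqcr10 and Cox7c. Ndufb1, Cox7c and Ndufaf7 were read at mean signals of 60.2 to 106 in each muscle, where intervals are wide. The count of 65 depends on pooling the spread by brightness, and was 40 with eBayes without an intensity trend.

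**Figure D1:**
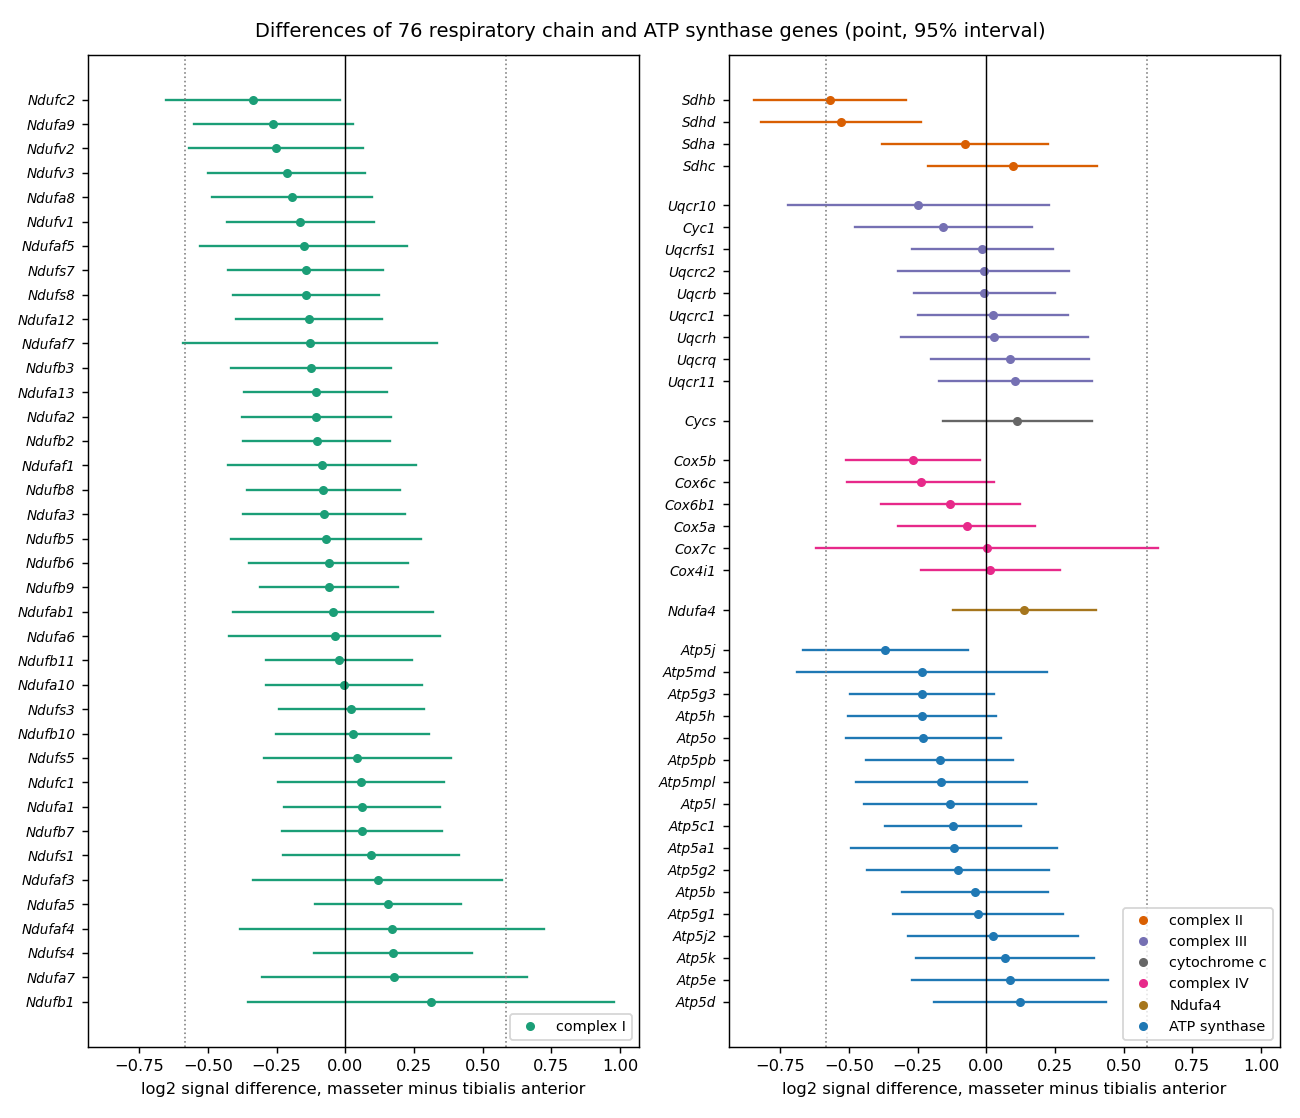
Log2 signal difference, masseter minus tibialis anterior (x axis), for each of the 76 genes (rows), grouped and coloured by complex, with the limma estimate as a point and its 95% interval as a line (3 arrays per muscle). Dotted lines mark 1.5-fold in either direction. Sdhb and Sdhd lie farthest to the left at -0.57 and -0.53, while most intervals cross 0 and stay inside the dotted lines.

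A majority of the genes lay below 0, with a small median difference of -0.07 over the 76 genes, against 0.02 over all probe sets and -0.04 over the bright probe sets. For the share below 0 in this scaling, no value for the bright probe sets was at hand. The difference was below 0 for 50 genes (65.8%, against 47.1% of all probe sets) and above 0 for 26. It had 1 sign in all 3 numbered pairs for 22 genes lower in the masseter (28.9%, against 16.3% of all probe sets and 26.0% of the bright ones) and for 4 genes higher, Ndufa4, Ndufa5, Ndufs4 and Uqcr11 (against 18.7% and 17.7%). All 3 masseter arrays lay below all 3 tibialis arrays for 12 genes (15.8%), against 8.63% of all probe sets and 16.0% of the bright probe sets. They were Sdhb, Sdhd, Atp5j, Atp5h, Atp5g3, Cox5b, Ndufc2, Ndufa9, Ndufv3, Ndufb2, Ndufv1 and Ndufs8. In the other direction it was 0 genes, against 9.21% and 9.81%. These counts rest on the scaling of the arrays. After quantile normalization the median was -0.01, 43 genes lay below 0, and the groups did not overlap for 8 genes lower and 3 genes higher in the masseter, against 13.5% and 13.4% of the bright probe sets.

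Tibialis anterior 1 stood apart from its group. The median log2 deviation of the 76 genes from their own mean over the 6 arrays was -0.06, 0.01 and -0.04 for masseter 1, 2 and 3. For tibialis anterior 1, 2 and 3 it was -0.08, 0.12 and 0.08. The lowest and the highest array were thus both of the tibialis anterior, and the muscles overlapped. The same measure over all probe sets ran only from -0.02 to 0.04. Without tibialis anterior 1, non-overlap lower in the masseter rose from 12 to 30 genes (39.5%, against 12.9% of all probe sets), and the median difference was -0.12. Without masseter 1, the array with the most salivary transcript, it was 17 genes (22.4%, against 12.8%), and the median was -0.04. With any 1 array left out, 1 to 3 genes (1.32% to 3.95%) were higher in the masseter without overlap, against 13.6% to 15.5% of all probe sets. For the bright probe sets no share was at hand with an array left out. With all arrays it was 16.0% lower and 9.81% higher, so these counts lack their closest comparison. By numbered pair the median difference was 0.02, -0.12 and -0.11 in pairs 1, 2 and 3.

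**Figure D2:**
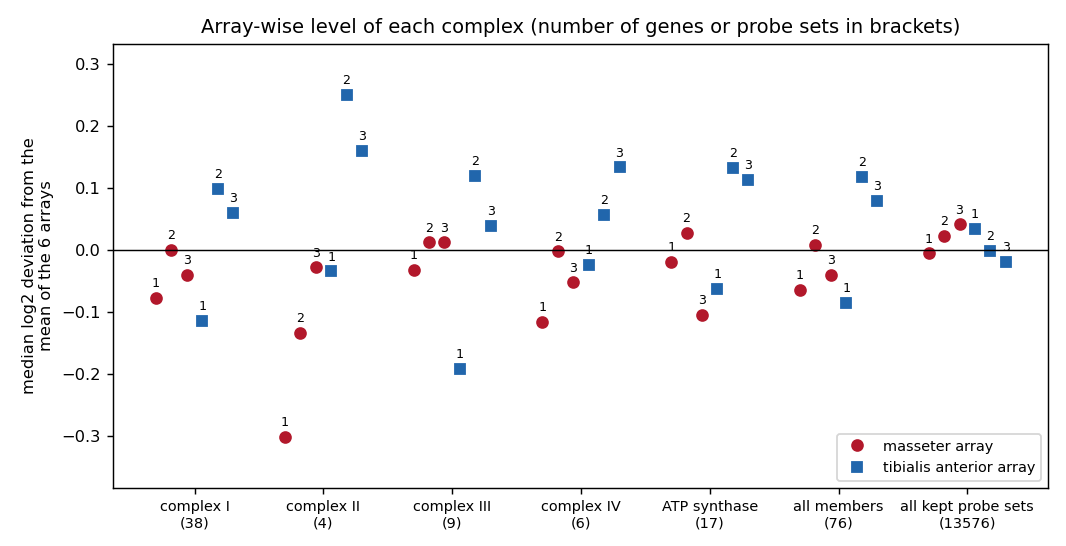
Median log2 deviation of each complex from the mean of the 6 arrays (y axis) for the 3 masseter arrays (red circles) and the 3 tibialis anterior arrays (blue squares), labelled by replicate number, with the number of genes or probe sets in brackets. Over all 76 genes tibialis anterior 1 lies lowest at -0.08 and tibialis anterior 2 highest at 0.12, and complex II has the widest range, from -0.30 to 0.25.

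Complex II, succinate dehydrogenase, showed the largest differences of the set, and they lay in 2 of its 4 subunits. It is built only from nuclear genes. Sdha carries the flavin that oxidises succinate, Sdhb carries the iron-sulphur clusters that take the electrons onward, and Sdhc and Sdhd anchor both in the membrane and bind ubiquinone. Sdhb had signals of 4407, 5378 and 5369 on masseter arrays 1, 2 and 3, against 7437, 7847 and 7116 on the tibialis arrays in the same order. Every masseter array lay well below every tibialis array. The log2 difference was -0.57 ± 0.12, a masseter level 67.4% of that in the tibialis anterior (95% interval 55.6% to 81.7%), and it did not pass (adjusted p = 0.0787). Over 16 alternatives it stayed between -0.65 and -0.47, with adjusted p-values from 0.0307 to 0.377, and passed in 1 of them, the fit with array weights.

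Sdhd had signals of 1995, 2293 and 2488 in masseter samples and 2519, 3524 and 3854 in tibialis samples. The groups did not overlap, although masseter 3 and tibialis anterior 1 differed by little. Its difference was -0.53 ± 0.13 (adjusted p = 0.111), or 69.3% of the tibialis level (95% interval 56.6% to 84.9%). Over the alternatives it ran from -0.71 to -0.41, and it too passed with array weights only (adjusted p = 0.0351). A dimmer probe set of Sdhd pointed the same way, at -0.25 ± 0.15 (adjusted p = 0.547), with 371, 461 and 386 in the masseter against 439, 529 and 474 in the tibialis anterior, and there the groups overlapped. Sdhb has 1 probe set on the array, so no other reading of it was at hand. Without masseter 1, the array with the high salivary sum, the differences were -0.47 for Sdhb and -0.44 for Sdhd.

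The other subunits of the same enzyme gave smaller differences. Log2 ratios of subunits within an array, chosen after values were seen, were compared between the muscles. Masseter less tibialis anterior, Sdhb differed by -0.49 over Sdha and -0.66 over Sdhc, and Sdhd by -0.45 and -0.62. The groups did not overlap. Each ratio gave an exact permutation p of 0.1, the smallest that 3 against 3 arrays allow, so this test could not decide whether the subunits differed. Sdha had 3377, 3577 and 4120 in the masseter against 3869, 4175 and 3628 in the tibialis anterior, differing by -0.08 ± 0.13 (95% interval -0.38 to 0.22, adjusted p = 0.861). Sdhc had 1252, 1378 and 1337 against 1057, 1302 and 1374, a difference of 0.10 ± 0.13 (95% interval -0.21 to 0.40, adjusted p = 0.83). The lower bounds of both intervals lie above the estimate for Sdhb, the lowest of the 76 genes. The 95% interval of Sdhb itself, -0.85 to -0.29, overlapped that of Sdha and ended just below that of Sdhc. The muscles overlapped for both genes, and the Sdhc difference turned to -0.02 without tibialis anterior 1. Their dimmer probe sets lay above 0, at 0.16 for Sdha and 0.33 for Sdhc, and did not pass.

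Some markers of slow fibres differed between the same samples. The summed signal over 8 genes was 1075, 831 and 905 in the masseter against 3880, 6129 and 3755 in the tibialis anterior. Myl3 alone gave 2422, 4269 and 2557 of the tibialis sums. Of the 8, 2 passed (Myl3 and Myl2), both lower in the masseter. The muscles overlapped for Tnni1, Tnnt1, Tpm3 and Atp2a2, and Atp2a2 lay above 0, at 0.23. Their part in the complex II values was not tested.

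**Figure D3:**
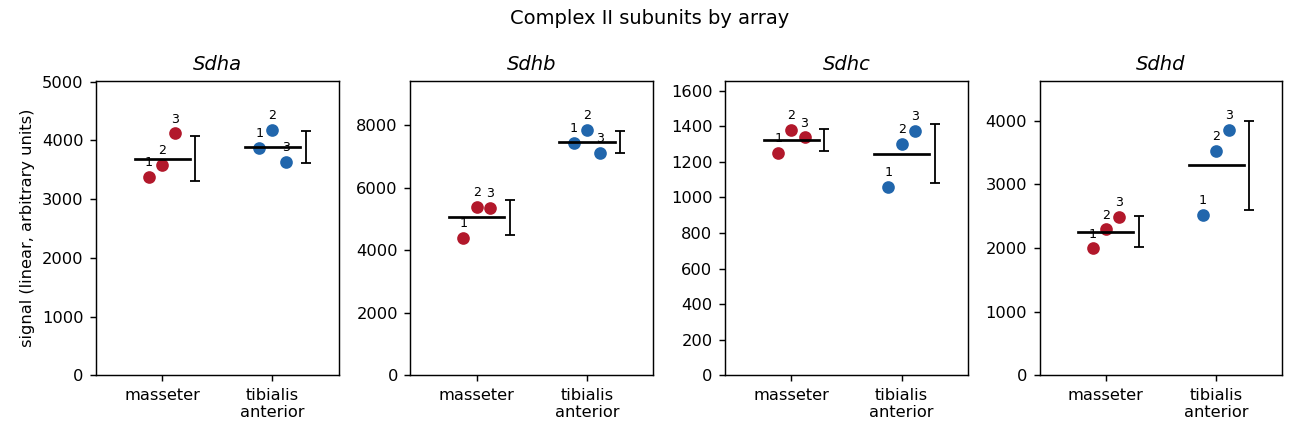
Signal (y axis, linear, each panel from 0 on its own scale) of the 4 complex II subunits on each array, with replicate numbers above the points, the group mean as a bar and the SD beside it (n = 3). Sdhb and Sdhd show no overlap between masseter (red) and tibialis anterior (blue), whereas Sdha and Sdhc overlap.

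The promoters of Sdhb, Sdhd and Sdha are shown because complex II held the genes farthest from 0. Sdhc is not shown here. The windows are the 250 bases before the RefSeq start site, on the GRCm38.p6 build and 5' to 3' on the gene's strand, and capitals mark matches to GCGCANGCG, a core of the motif of the mitochondrial regulator NRF1, and to CCGGAAG, a core of ETS-family factors such as GABP, each searched on both strands.
Sdhb, chr4:140961021-140961270, plus strand: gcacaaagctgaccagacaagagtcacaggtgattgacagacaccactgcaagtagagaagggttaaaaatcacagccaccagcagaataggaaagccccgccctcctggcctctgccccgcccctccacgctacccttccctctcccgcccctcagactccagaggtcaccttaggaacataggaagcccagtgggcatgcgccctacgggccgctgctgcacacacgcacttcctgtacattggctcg
Sdhd, chr9:50603850-50604099, minus strand: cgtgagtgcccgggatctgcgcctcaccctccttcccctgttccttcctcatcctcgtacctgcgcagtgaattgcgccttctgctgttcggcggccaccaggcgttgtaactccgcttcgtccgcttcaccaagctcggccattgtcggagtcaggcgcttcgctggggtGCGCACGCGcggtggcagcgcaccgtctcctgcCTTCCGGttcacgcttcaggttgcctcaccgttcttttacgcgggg
Sdha, chr13:74350241-74350490, minus strand: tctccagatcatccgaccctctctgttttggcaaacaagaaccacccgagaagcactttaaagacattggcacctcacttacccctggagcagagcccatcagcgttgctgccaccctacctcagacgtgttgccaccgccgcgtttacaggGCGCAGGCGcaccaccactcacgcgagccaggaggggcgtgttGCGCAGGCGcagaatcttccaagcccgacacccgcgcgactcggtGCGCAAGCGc
The Sdha window held 3 NRF1 matches, beginning 98, 55 and 10 bases before the start site, and no ETS match. That of Sdhd held 1 of each, beginning 79 and 46 bases before it, and the Sdhb window held neither. The genes with the lower masseter readings, Sdhb and Sdhd, did not hold the same set of exact matches, and near matches were not counted. Of 64 member genes with a promoter in the RefSeq table, 12 (18.8%) held the NRF1 core and 12 (18.8%) the ETS core, against 5.86% and 7.83% of the 27025 genes in the table. Of AAGATGGCG and GGGCGG, cores of YY1 and Sp1 searched in the same way, the former was in 1 member (1.56%, against 0.71% of all) and the latter in 23 (35.9%, against 35.4%). A match describes letters, not binding.

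Complex I, the NADH dehydrogenase, was read by 38 genes with a median difference of -0.07, 25 below 0 and 13 above. Of its 6 core genes, whose proteins form the arm that takes electrons from NADH toward ubiquinone, 4 lay below 0 and none passed. Ndufv1, which carries the flavin, had signals of 4460, 5380 and 5119 in the masseter against 5512, 5791 and 5406 in the tibialis anterior. The groups did not overlap, by a narrow margin, at -0.16 ± 0.12 (adjusted p = 0.623). Ndufs8, a cluster-bearing subunit near the quinone site, was likewise separated in the groups, with 4046, 4314 and 4038 against 4355, 4589 and 4746 (-0.14 ± 0.12, adjusted p = 0.673). Its 6 probe sets ran from -0.24 to 0.13, and the gene was chosen after its values were seen. Ndufv2, an iron-sulphur subunit beside the flavin, varied most within each muscle among the core genes, with 4449, 8126 and 5572 against 4953, 8235 and 8335 (-0.25 ± 0.14, adjusted p = 0.501). That spread belongs to its brightest probe set, a kind ending in _x_at that can bind transcripts of more than 1 gene. Its other probe sets read 0.13 and -0.03, with SDs of log2 signal from 0.06 to 0.14.

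The 27 accessory genes of complex I, whose proteins surround and stabilise the core, had a median of -0.06. Ndufc2, a membrane-arm subunit, had 3894, 5413 and 5248 in the masseter against 6118, 6517 and 5576 in the tibialis anterior, differing by -0.34 ± 0.14 (adjusted p = 0.354). The muscles did not overlap, yet its other probe set read 0.08. Ndufa9, which lies at the joint of the arms, had 3033, 2775 and 2418 against 3360, 3162 and 3300 (-0.26 ± 0.13, adjusted p = 0.434). Here too all masseter arrays were the lower ones, and this gene has 1 probe set. In the other direction, Ndufs4, a subunit whose loss causes complex I deficiency, had 2602, 2756 and 2737 against 2087, 2664 and 2455 (0.17 ± 0.13, adjusted p = 0.624). It was higher in the masseter in all 3 numbered pairs, and the groups overlapped. The remaining accessory genes lay between -0.21 (Ndufv3) and 0.31 (Ndufb1), and 18 of the 27 were below 0. Ndufb2 and Ndufv3, the other members without overlap, differed by -0.11 ± 0.12 and -0.21 ± 0.12 (adjusted p = 0.779 and 0.538).

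Assembly factors help to build complex I and are no part of the finished enzyme. The 5 measured, Ndufaf1, Ndufaf3, Ndufaf4, Ndufaf5 and Ndufaf7, had a median of -0.08, with 3 below 0 and 2 above. Ndufaf5, a hydroxylase that modifies a core subunit, had signals of 266, 223 and 233 in the masseter against 269, 252 and 279 in the tibialis anterior (-0.15 ± 0.16, adjusted p = 0.772), and the groups overlapped. The intervals of Ndufaf4 (-0.38 to 0.72) and Ndufaf7 (-0.59 to 0.33) were too wide to hold the difference within 1.5-fold.

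Complex III, the cytochrome bc1 complex, had the median nearest 0 of the complexes. Its 9 genes had a median of -0.01, with 5 below 0 and 4 above, and the muscles overlapped for each of the 9. Uqcrfs1, the Rieske iron-sulphur protein, differed by -0.01 ± 0.11 and the core proteins Uqcrc1 and Uqcrc2 by 0.02 ± 0.12 and -0.01 ± 0.14. Uqcrb, a small subunit near the quinone sites, had 16424, 16902 and 17455 in the masseter against 16908, 18861 and 15415 in the tibialis anterior (-0.01 ± 0.11, adjusted p = 0.988). Those signals lie near the top of the scale, where the highest signal of an array was 18461 to 22667. Whether they were limited by that was not tested, and the dimmer probe set of Uqcrb read -0.29. Uqcrb was chosen after its values were seen. Uqcr11, another small subunit, had 3391, 3340 and 3687 against 2860, 3320 and 3531 (0.11 ± 0.12, adjusted p = 0.786). It was higher in the masseter in all 3 pairs by small margins. Cyc1, the cytochrome c1 that passes electrons to cytochrome c, had 4623, 7216 and 6001 against 6442, 6546 and 6574 (-0.16 ± 0.14, adjusted p = 0.713). The low value was masseter 1, and without that array the difference was 0.01. After quantile normalization the median of complex III was 0.09, so its sign rests on the scaling.

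Cytochrome c itself, the soluble carrier encoded by Cycs, had 7719, 9311 and 9889 in the masseter against 8205, 7955 and 8604 in the tibialis anterior. Masseter 1 was the lowest of the 6 arrays and masseter 2 and 3 the highest. The difference was 0.11 ± 0.12 (adjusted p = 0.761), and its other probe sets read 0.21 and -0.10.

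The 6 complex IV genes, general subunits of cytochrome c oxidase, had a median of -0.10, and 4 lay below 0 in all 3 numbered pairs. Cox5b, a zinc-binding subunit, had 12460, 13682 and 13466 in the masseter against 15667, 15230 and 16770 in the tibialis anterior. The groups did not overlap, at -0.27 ± 0.11 (adjusted p = 0.333). Of its 4 other kept probe sets, those at -0.29 and -0.23 did not overlap between the muscles either, while those at -0.11 and 0.19 overlapped. The difference shrank to -0.09 after quantile normalization (adjusted p = 0.77). Cox6c, a small transmembrane subunit, had 6797, 7487 and 6019 against 7466, 8424 and 8008 (-0.24 ± 0.12, adjusted p = 0.44), with masseter 2 just above tibialis anterior 1. The dimmer probe set of Cox6c read 0.10. Cox4i1, the most widely expressed form of subunit 4 and chosen here after its values were seen, had 7588, 8018 and 8842 against 7737, 8261 and 8157. Its difference of 0.02 ± 0.11 had a 95% interval of -0.24 to 0.27. Cox5a and Cox6b1, which complete the 4 genes lower in every pair, differed by -0.07 ± 0.11 and -0.13 ± 0.11 with overlap. The dimmer probe set of Cox6b1 read -0.29 without overlap. The dim Cox7c could not be placed to better than -0.62 to 0.63. Ndufa4 had 4321, 4905 and 4631 against 4044, 4464 and 4081, a difference of 0.14 ± 0.11 (adjusted p = 0.682), higher in the masseter in each pair. It remained above 0 in 16 of 16 alternatives, from 0.09 to 0.19, with overlap in the deposited scaling and none after quantile normalization.

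ATP synthase had 17 genes with a median of -0.12, 13 below 0 and 4 above, and its parts differed in how evenly they were read. All 4 genes of the peripheral stalk, which holds the catalytic head still while the rotor turns, lay below 0 in each of the 3 numbered pairs (median -0.23), whereas over all probe sets 16.3% did and over the bright probe sets 26.0%. Atp5j, coupling factor 6, had 4877, 5757 and 4376 in the masseter against 5966, 6484 and 6832 in the tibialis anterior, differing by -0.37 ± 0.13 (adjusted p = 0.272). The groups did not overlap. Atp5h, subunit d, had 6618, 8096 and 8449 against 8892, 9127 and 9078, also without overlap (-0.23 ± 0.12, adjusted p = 0.454). Atp5o, the oligomycin-sensitivity subunit, had 2693, 2879 and 2271 against 2849, 3489 and 2851, and Atp5pb, subunit b, 5541, 6183 and 5175 against 5709, 6891 and 6422. For these last genes the muscles overlapped, at -0.23 and -0.17. The other probe sets of Atp5h, Atp5o and Atp5pb read -0.10, -0.03 and 0.18. On those the muscles overlapped, and none kept 1 sign in every pair. After quantile normalization all 4 stayed below 0, and 3 of the 4 did so in every pair. The stalk was singled out after its values were seen, and none of its genes passed.

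The other parts of ATP synthase gave smaller or mixed readings. The 5 genes of the F1 head and central stalk, where ATP is made, had a median of -0.04, with 3 below 0 and 2 above, and 4 of the 5 lay above 0 after quantile normalization. Atp5a1 and Atp5c1, the alpha and gamma subunits, differed by -0.12 each, and Atp5d and Atp5e, of the central stalk, by 0.12 and 0.09. Atp5b, the catalytic beta subunit, also chosen after its values were seen, had 5912, 5682 and 6124 against 5792, 6469 and 5982, a difference of -0.04 with a 95% interval of -0.31 to 0.22. The 5 small membrane subunits had a median of -0.13, with medians of 0.25 in pair 1 and -0.26 and -0.28 in pairs 2 and 3.

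Subunit c, of which a ring forms the rotor, is encoded by 3 genes that differ in their import sequences and yield the same mature protein. Atp5g3 had 8622, 11224 and 10886 in the masseter against 11563, 12149 and 12212 in the tibialis anterior (-0.23 ± 0.11, adjusted p = 0.442), and all masseter arrays were below all tibialis arrays. Atp5g1 had 4132, 4206 and 3814 against 3473, 4483 and 4520 (-0.03 ± 0.13, adjusted p = 0.954), and Atp5g2 had 936, 952 and 797 against 881, 1013 and 985 (-0.10 ± 0.14, adjusted p = 0.83). For both the groups overlapped. The sign for Atp5g1 turned in 6 of 16 alternatives, and whether the 3 genes differed from one another was not tested.

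**Figure D4:**
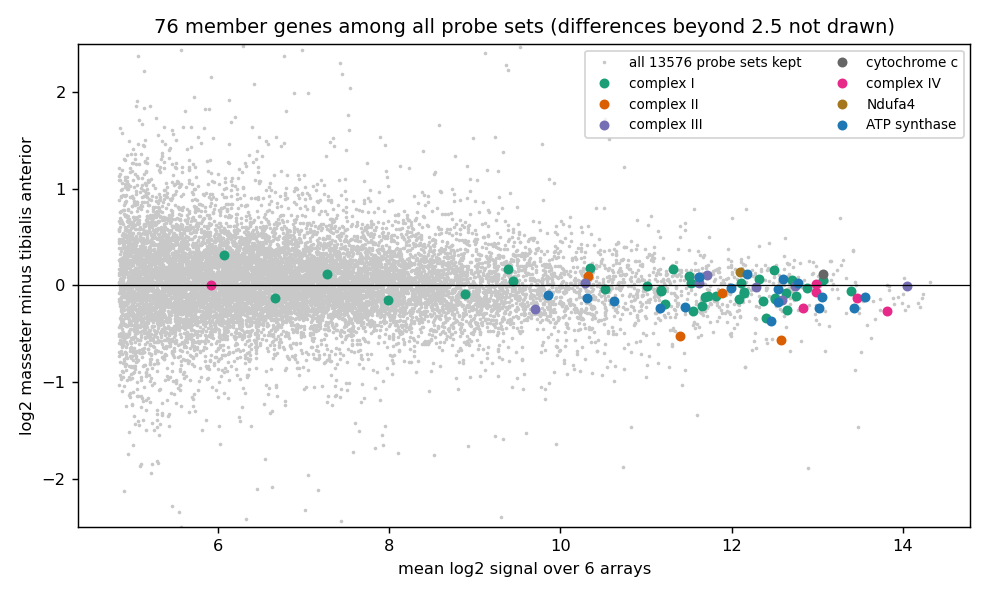
Log2 difference, masseter minus tibialis anterior (y axis), against mean log2 signal over the 6 arrays (x axis) for all probe sets kept (grey) and for the brightest probe set of each of the 76 genes (coloured by complex). The 76 genes sit mostly at the bright end and within a narrow band around 0, with Sdhb and Sdhd below it. Probe sets with differences beyond 2.5 are not drawn.

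Genes read by several probe sets show how far a reading depends on the probe set. Of 40 genes with 2 or more kept probe sets, 19 had estimates of opposite sign, and the median distance between the lowest and the highest estimate of a gene was 0.23. The median SE over the 76 genes was 0.13. Ndufa5, an accessory subunit of complex I, was the extreme case. Its brightest probe set had 5057, 6454 and 6990 in the masseter against 4617, 5275 and 6766 in the tibialis anterior (0.16 ± 0.12, adjusted p = 0.638), while a dimmer one had 839, 1545 and 998 against 1544, 1783 and 1935 (-0.68 ± 0.17, adjusted p = 0.128). On the dimmer one masseter 2 and tibialis anterior 1 were level, so the groups just overlapped. It gave the largest difference of any of the 138 member probe sets tested, in the direction opposite to the bright one.

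The next widest were genes of complex III. The probe sets of Uqcrq, a small subunit, lay at 0.09 for the bright one (3068, 3448 and 3181 in the masseter against 2566, 3576 and 3070) and at -0.43 and 0.29 for those read near the filter level, whose 95% intervals ran from -1.27 to 0.41 and from -0.56 to 1.14. Those of Uqcr10, also a small subunit, lay at -0.25, 0.01 and 0.36, each with a 95% interval that included 0. Its brightest one had 954, 697 and 679 against 732, 970 and 1066 (-0.25 ± 0.21, adjusted p = 0.685), with masseter 1 and tibialis anterior 1 placed opposite to the rest of their groups. For Cox5b and Ndufs4 the distance between probe sets was 0.47 and 0.45.

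**Figure D5:**
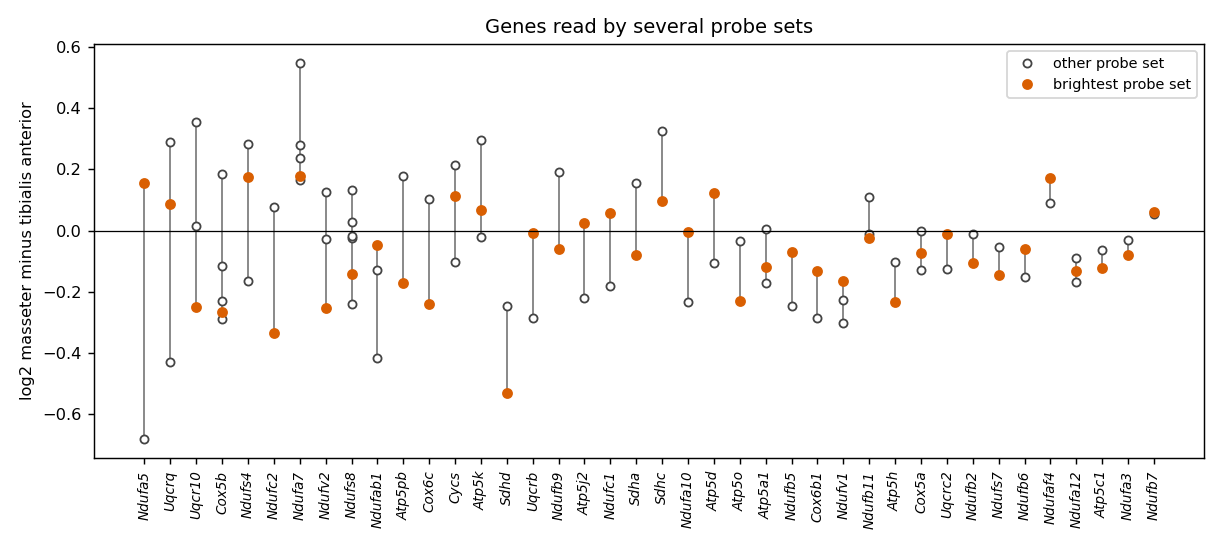
Log2 difference, masseter minus tibialis anterior (y axis), of every kept probe set of the 40 genes that have more than 1 (x axis, ordered by range), with the brightest probe set filled and the others open. Ndufa5 spans from -0.68 to 0.16, and 19 of the genes have points on both sides of 0.

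Genes of the pathway outside the set gave the same count of calls. From 5 lists, 0 of 68 tested genes passed in either direction by limma, where 1.18% of all probe sets did. At an unadjusted p under 0.05, 3 were higher and 1 lower, against 6.93% and 6.12% of all probe sets. In the limma fit with array weights 1, Cox6a1, passed (adjusted p = 0.048). The lists are the tissue isoforms of cytochrome c oxidase (9 genes tested, median 0.14), assembly factors of other names (28, median -0.11), coenzyme Q synthesis (9, median 0.06), carriers of nucleotides and phosphate (7, median -0.13), and mitochondrial biogenesis with expression of mitochondrial DNA (15, median 0.18). Cox6a1, the form of subunit 6a that is not restricted to heart and muscle, had signals of 1363, 1282 and 1244 in the masseter against 666, 765 and 1059 in the tibialis anterior (0.67 ± 0.17, adjusted p = 0.137). Ppargc1a, the coactivator that drives mitochondrial biogenesis, had 620, 534 and 490 against 232, 324 and 459 (0.75 ± 0.24, adjusted p = 0.225). It was read by a probe set ending in _x_at, which can bind transcripts of more than 1 gene, and differed by only 0.10 in pair 3. Cox6a1 and Ppargc1a were both higher in every masseter array than in any tibialis array, as were 9.21% of all probe sets. That direction is opposite to that of Sdhb.

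In the remaining lists the genes with the smallest p were Vdac1, Coq5 and Coa5. Vdac1, the main channel of the outer mitochondrial membrane, was read by a probe set ending in _x_at. It had 5576, 5164 and 6132 in the masseter against 6657, 6577 and 7753 in the tibialis anterior (-0.31 ± 0.11, adjusted p = 0.268), without overlap. Coq5, a methyltransferase of coenzyme Q synthesis, was the reverse, with 472, 469 and 396 against 366, 346 and 311 (0.39 ± 0.15, adjusted p = 0.319). Coa5, an assembly factor of complex IV, overlapped between the muscles (-0.28 ± 0.15, adjusted p = 0.475).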

How the data were processed

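Each of the 6 arrays had linear signal intensities as deposited by the authors, 1 per probe set. MAS5 and GCOS are named in the submitters' processing notes, with settings not given in the sources read. No further scaling was applied. Values were floored at 1 before log2 was taken, 64 control probe sets were left out, and probe sets whose mean log2 signal reached the 40th percentile (4.84, a signal of 28.6) were kept. limma 3.58.1 in R 4.3.3 was fitted over all 13576 kept probe sets (lmFit, eBayes with trend, two-sided tests). The replicate number entered as a fixed block, since paired comparisons are described in the series' design text. Adjustment was by Benjamini-Hochberg over all of them. The procedure was tested on simulated data. The true changes set there were larger than any difference of the members, so that test does not show whether differences of their size would be found.

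Members were matched on the platform annotation, and all 76 symbols were found unchanged by gene identifier in a RefSeq gene table. The members, gene lists and rules were chosen with earlier results of these data known. The text names any member past the threshold and, per complex (complex I by role), the 2 genes farthest from 0 in each direction among those with 1 sign in every pair, the 5 smallest p-values, complex II, cytochromes c and c1, subunit c, Ndufa4, the 5 genes whose probe sets lay farthest apart, and 1 gene per pathway list. Every other gene named was chosen after its values were seen, to complete a count or the account of a complex. Alternatives changed the block, trend, normalization, offset, filter, array weights, test and arrays used.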

Additional observations from a re-analysis of the deposited data

How the results depend on the processing

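The count of 0 genes of the set past the threshold held in every alternative run except array weights, which gave 2 (Sdhb and Sdhd), 1 further pathway gene and 391 probe sets in all. The 160 probe sets called overall became 13 with eBayes without trend and 68 with paired SAM, and ran from 45 to 173 with a pair or an array left out. The 65 genes with intervals within 1.5-fold became 40 without trend. Without the replicate block, 138 probe sets and 0 genes of the set passed, and 66 intervals lay within 1.5-fold. Deviations from the group means of same-numbered arrays correlated at 0.039, 0.152 and 0.101 across probe sets. Arrays of unlike number gave -0.157 to 0.047, a range that holds the first of these. The data thus give at most a weak hint of pairing.

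Of 108 medians recomputed, 101 moved by less than the spread between pairs. Complex III went to 0.089 and complex IV to -0.045 with quantile normalization. With arrays left out, complex III ran from -0.056 to 0.056 and complex IV from -0.15 to -0.091. Complex II, with a median of -0.30 over the brightest probe sets of its 4 genes, went to -0.079 over all its probe sets and to -0.17 with the mean per gene. Non-overlap, an alternative added after seeing the data, ran from 12 to 30 genes lower and from 1 to 3 higher in the masseter with 1 array left out (all probe sets 12.8% to 14.6% and 13.6% to 15.5%), where fewer arrays overlap less by construction. Of 368 values for 23 named genes, 355 kept their direction and their side of the threshold, 2 now passed (Sdhb and Sdhd with array weights) and 11 changed sign. Those that changed sign were Atp5g1 (0.032 with quantile normalization, -0.17 to 0.079 with arrays left out), Cyc1 (-0.31 to 0.013), Sdhc (-0.017 to 0.17) and Uqcrq (-0.037 to 0.20). Where no construction is named, the cause was not tested. Signals near background limit Ndufb1 and Cox7c.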

Other observations

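Probe sets of this array whose names end in _x_at or _s_at can bind transcripts of more than 1 gene, which matters for families with many processed copies. Of the 76 genes, 19 were read by such a probe set, 27 by one ending in _a_at, which reads several transcripts of 1 gene, and 30 by a plain one. Their median differences were -0.11, -0.02 and -0.08. Unadjusted p-values under 0.05 came from 2, 0 and 3 genes of these classes, all lower in the masseter. Sdhb, Sdhd and Atp5j were read by plain probe sets, and Cox5b and Ndufc2 by the less specific kind. The classes hold different genes, so these values describe the readings and were not tested against each other.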
